A study of Mus musculus with 2 samples.

Results

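The granzymes, perforin, Nkg7 and their intracellular inhibitors are described here across 2 Affymetrix arrays of mouse bone marrow cells. A probe set, the group of short probes that measures 1 transcript, was taken where the platform annotation gave it exactly 1 gene symbol and that symbol was Gzma, Gzmb, Gzmk, Gzmm, Prf1, Nkg7, Serpinb9 or Serpinb6b. This gave 10 of the 45037 probe sets, which stand for 8 of 18193 genes. The genes were proposed with the difference between these arrays already known, so that difference is given as a description and supports nothing by itself. Both arrays held RNA of LSK Flt3- cells, a marrow fraction rich in stem cells, from wild-type mice of the strain C57BL6J. The cells of 1 array had been transduced with GFP, the control, and those of the other with Satb1, whose product is a nuclear DNA-binding protein with a preference for AT-rich sequence. The vector, the time after transduction and the number of animals behind each array were not stated in the sources used here. With 1 array per group there is no replicate spread, and no difference below carries a standard error or a p-value.

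Granzymes are serine proteases stored in the secretory granules of cytotoxic lymphocytes. Perforin, the product of Prf1, forms pores in a target cell through which granzymes enter, and granzyme B then cleaves proteins after aspartate and so starts apoptosis. Nkg7 is a membrane protein of the same granules, and serpins of clade B are intracellular protease inhibitors, of which Serpinb9 blocks granzyme B and protects the cell that makes it. Granzyme genes are also transcribed outside cytotoxic lymphocytes, for example in mast cells.

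Values are MAS5 intensities, a linear measure of brightness per probe set, as deposited. Intensities under 61.7, which is the median over both arrays together, were raised to that floor before a log2 difference was taken, and a gene was counted as lower or higher at 2-fold or more. The Satb1 transcript itself was no brighter on the Satb1-labelled array, at 909 against 1116, and 5 of 5 of its probe sets were dimmer there, so each array goes by its label and every direction rests on these labels. All 11 measured stem and progenitor markers were above the floor on both arrays, 1 of them 2-fold higher and 0 lower, against 0.272% of all genes above the floor that were higher, with a median log2 difference of -0.06. The one past 2-fold was Slamf1, a stem cell surface marker gene, at 95.7 on the GFP-labelled array and 232.6 on the Satb1-labelled array, while its other 2 probe sets were under the floor. The stem cell factor gene Hlf was lower by both probe sets, by -0.82 and -1.06, and Hoxa9, a homeobox gene of progenitors, differed by -0.50 and -0.08. Cd34, a progenitor surface marker, differed by -0.06, as did Flt3, whose product the sort selected against, at 1390.4 and 1334.

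Gzmb and Nkg7 were bright on the GFP-labelled array and much dimmer on the Satb1-labelled array. The other 6 genes were dim or close to equal, except Serpinb6b, which was 1.41-fold lower on the Satb1-labelled array. Gzmb and Nkg7 were thus the 2 of 8 genes that were at least 2-fold lower, against 0.522% of all 18193 genes and 0.86% of the 11048 genes above the floor on at least 1 array. None of the 8 was 2-fold higher. Because the genes were chosen on this contrast, nothing is read from that count. Of the 8 genes, 5 were above the floor. The median log2 difference over all 8 was -0.01, with the 3 genes below the floor counted at 0, where the median of all genes was 0.

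The effector proteases came first. Gzmb, which encodes granzyme B, read 3162 on the GFP-labelled array and 875 on the Satb1-labelled array, a 3.61-fold lower intensity and a log2 difference of -1.85. The other granzymes did not reach the floor. Gzma, a granzyme that cleaves after basic residues, read 18.0 and 32.6, and Gzmk, of the same specificity, read 26.0 and 5.4. Gzmm, a granzyme that cleaves after methionine, read 7.3 and 24.9. For these 3 no fold is given, and Gzmb was the only one of the 4 granzymes above the floor.

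The pore former and the granule membrane protein differed from each other. Prf1 was at the edge of detection by both of its probe sets. The first read 80.4 on the GFP-labelled array and 81.5 on the Satb1-labelled array, a log2 difference of 0.02, and the second read 60.4 and 41.4, under the floor. Nkg7 read 2667 on the GFP-labelled array and 754 on the Satb1-labelled array, 3.54-fold lower, with a log2 difference of -1.82. Its difference was thus close to that of Gzmb.

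The inhibitor genes showed smaller differences or none. Serpinb9, the granzyme B inhibitor, read 174 and 173 by its brighter probe set, a log2 difference of -0.01. Its other probe set read 78.2 on the GFP-labelled array and 59.4, under the floor, on the Satb1-labelled array. Serpinb6b, another clade B serpin, read 429.7 and 304, a log2 difference of -0.50 that is below the 2-fold mark. The protease that Serpinb9 inhibits was therefore 3.61-fold dimmer on the Satb1-labelled array while the brighter Serpinb9 probe set differed by 1.01-fold.

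**Figure D1:**
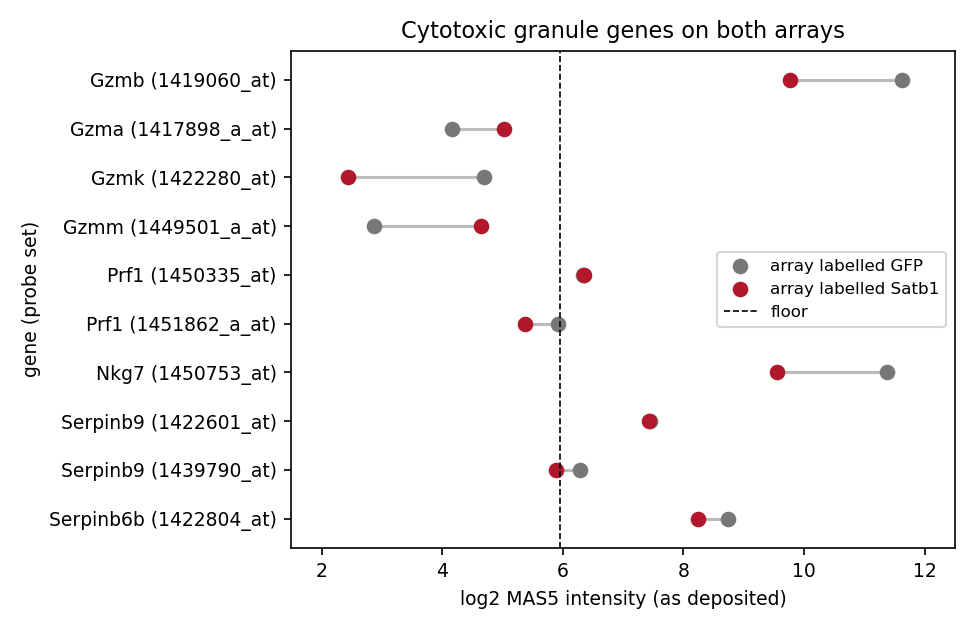
Log2 MAS5 intensity as deposited (x axis) of each probe set of the 8 genes (y axis) on the GFP-labelled array (grey) and the Satb1-labelled array (red), with the floor as a dashed line. Gzmb and Nkg7 lie far to the right of the floor with the Satb1 point well to the left of the GFP point, while Gzma, Gzmk and Gzmm lie left of the floor on both arrays.

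The scatter among probe sets that share a gene is the only technical spread that single arrays offer. It was 0.19 log2 units (SD) for probe sets with a geometric mean intensity of 500 to 2000, the range that holds Gzmb and Nkg7, and 0.36 for those under 200, the range of Prf1 and Serpinb9. Over all probe sets with 1 symbol in the 500 to 2000 range, the SD of the log2 difference was 0.24. These SDs leave out any error shared by all probe sets of an array preparation. Gzmb and Nkg7 each have 1 probe set, so neither difference could be set against a second probe set of its gene. Ordered from the lowest difference, Gzmb was number 5 and Nkg7 number 6 of the 11048 genes above the floor. Among 6609 genes with a geometric mean intensity over 500, of which 0.272% were at least 2-fold lower, they were numbers 3 and 4. As the 2 genes were chosen on this contrast, nothing is read from these ranks.

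Genes with values like those of Gzmb and Nkg7 were listed by distance in the plane of the log2 intensities on the 2 arrays, among genes above the floor on both. Both genes were chosen on this contrast, and brightness is not comparable between probe sets, so nothing is read from their own distance. Besides Nkg7, the genes nearest to Gzmb were Slpi at 0.38, Clec2d at 0.74, Adgrl4 at 0.77 and Atp13a2 at 0.83. Besides Gzmb, those nearest to Nkg7 were Clec2d at 0.55, Adgrl4 at 0.60, Slpi at 0.62 and Myct1 at 0.75. Slpi, which encodes a secreted protease inhibitor, read 3056 on the GFP-labelled array and 1136.5 on the Satb1-labelled array. Such a likeness rests on 2 values per gene.

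**Figure D2:**
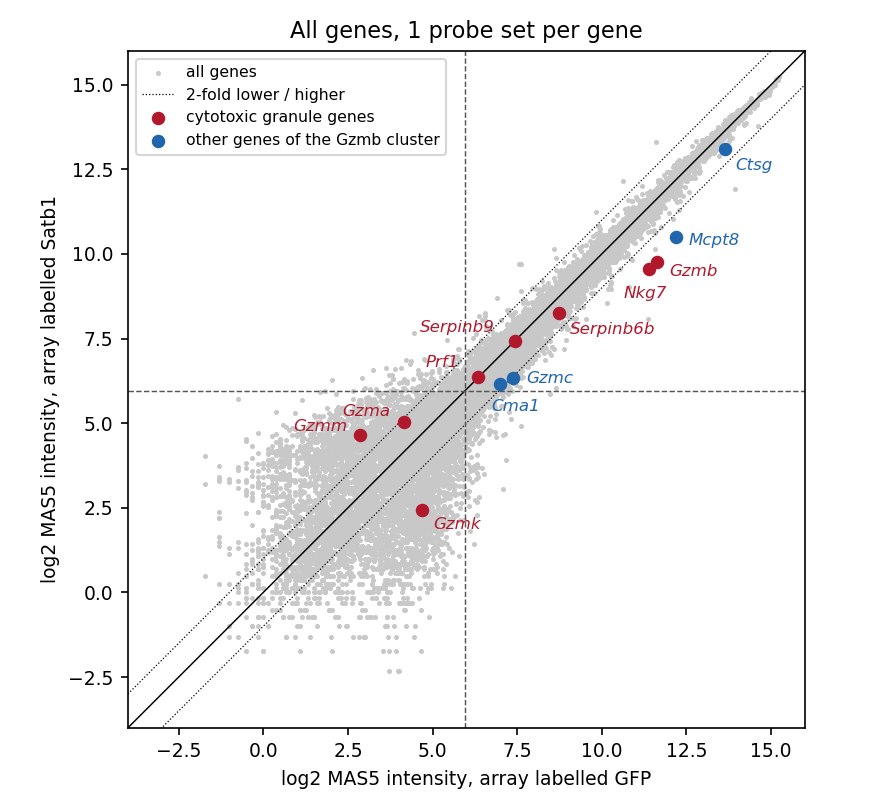
Log2 MAS5 intensity on the GFP-labelled array (x axis) and on the Satb1-labelled array (y axis) for all genes, 1 probe set each, with the cytotoxic granule genes in red, the other measurable genes of the Gzmb cluster in blue, the floor as dashed lines and 2-fold differences as dotted lines. Gzmb, Nkg7 and Mcpt8 lie well below the lower dotted line, and Prf1 and Serpinb9 lie on the diagonal.

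The promoters of 4 genes are shown because 3 of them, Gzmb, its chromosomal neighbour Gzmc and Nkg7, were lower on the Satb1-labelled array, and Prf1, a partner of granzyme B in killing, was not. Each window is the 250 bases before the annotated transcription start, from RefSeq on GRCm38.p6, written 5′ to 3′ on the gene's strand. All 8 genes matched the promoter table, Gzmm with 2 start sites. The windows are chr14:56262335-56262584 on the minus strand for Gzmb, chr14:56234658-56234907 on the minus strand for Gzmc, chr7:43436888-43437137 on the plus strand for Nkg7 and chr10:61297586-61297835 on the plus strand for Prf1. Capitals mark matches on either strand to 8 motifs. The letters searched were TATAAA for the TATA box, TGANTCA for AP-1 and TGACGTCA for the CRE. They were TGTGGT for RUNX factors, GATAAG for factors of the GATA family and CANNTG for the E-box. They were TGGGAA for Ikaros and GGAAGT for factors of the ETS family.
Gzmb: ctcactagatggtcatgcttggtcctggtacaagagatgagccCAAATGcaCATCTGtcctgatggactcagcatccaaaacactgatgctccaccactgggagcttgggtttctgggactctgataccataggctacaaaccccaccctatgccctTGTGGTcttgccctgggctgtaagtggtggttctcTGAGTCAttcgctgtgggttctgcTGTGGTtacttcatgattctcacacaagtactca
Gzmc: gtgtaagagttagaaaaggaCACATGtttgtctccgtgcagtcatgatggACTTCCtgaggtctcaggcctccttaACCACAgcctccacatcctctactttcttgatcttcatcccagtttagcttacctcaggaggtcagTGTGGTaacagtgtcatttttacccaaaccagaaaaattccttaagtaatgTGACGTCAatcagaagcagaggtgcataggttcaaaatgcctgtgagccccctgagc
Nkg7: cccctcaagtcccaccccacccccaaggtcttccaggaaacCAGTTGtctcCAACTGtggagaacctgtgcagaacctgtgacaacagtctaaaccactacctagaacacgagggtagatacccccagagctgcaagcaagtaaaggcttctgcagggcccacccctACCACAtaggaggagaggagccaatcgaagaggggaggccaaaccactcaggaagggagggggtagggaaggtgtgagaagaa
Prf1: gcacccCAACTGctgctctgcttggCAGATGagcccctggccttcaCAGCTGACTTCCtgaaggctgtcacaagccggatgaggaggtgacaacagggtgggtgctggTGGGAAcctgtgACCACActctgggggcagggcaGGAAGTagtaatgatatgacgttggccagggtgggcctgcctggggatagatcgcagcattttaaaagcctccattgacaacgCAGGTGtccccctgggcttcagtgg

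The RUNX letters, the core bound by the transcription factors Runx1 and Runx3, occurred in the windows of 5 of the 8 genes, namely Gzma, Gzmb, Gzmm, Nkg7 and Prf1. They occurred in 14.0% of all 32817 promoter windows of this length. The Gzmb window held them at 2 places, which 1.27% of windows do, from base 93 to base 88 and from base 34 to base 29 before the start. The windows of Gzmc and of Mcpt8, another gene of the same run on chromosome 14, held 2 RUNX matches each as well, those of Gzmc from base 174 to base 169 and from base 108 to base 103. Of the other genes of that run above the floor, which were lower too, Ctsg held 1 RUNX match and Cma1 held 0. The AP-1 letters lay between the 2 RUNX places of the Gzmb window, from base 58 to base 52. They were found in Gzmb alone of the 8 genes, against 6.75% of all windows. Gzmc had no AP-1 match but a CRE match, a motif of 1.55% of windows, from base 57 to base 50. Nkg7 had 1 RUNX match and 2 E-boxes, and E-boxes occur in 66.2% of windows. Prf1 had 1 RUNX match too, along with 4 E-boxes, 2 ETS matches and 1 Ikaros match, and its first ETS match directly follows an E-box. The remaining shares were 12.4% for the TATA box, 6.55% for GATA, 21.6% for Ikaros and 19.7% for ETS. The A and T content was 54.0% for Gzmc, 49.2% for Gzmb, 44.0% for Nkg7 and 41.2% for Prf1, against a median of 47.6% over all windows. It was above that median in the other members' windows too, at 55.2% for Gzma, 53.2% and 52.4% for the 2 starts of Gzmm, 52.4% for Serpinb9 and 50.4% for Serpinb6b, and Gzmk lay between Gzma and Serpinb6b. A match is a description of letters, and binding was not measured here.

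On chromosome 14, Gzmb is the last of 15 neighbouring protein-coding genes for granule serine proteases, a run that begins with the mast cell chymase gene Cma1 and was singled out after its values were seen. Of the 13 measured genes of the run, 5 were above the floor, and all 5, with Gzmb itself among them, were lower on the Satb1-labelled array. Next to Gzmb, Gzmc, a granzyme of activated lymphocytes, read 167 on the GFP-labelled array and 80.0 on the Satb1-labelled array, a log2 difference of -1.06. After quantile normalization the Gzmc difference was -0.90, short of 2-fold. Ctsg, encoding cathepsin G of myeloid granules, read 12716 and 8777, a log2 difference of -0.53, and Cma1 read 127 and 70.9, a difference of -0.84. Mcpt8, a basophil protease gene, stood with Gzmb as the other gene of the run beyond 3-fold, with a difference of -1.68. The remaining 8 measured genes, which are Gzmd, Gzme, Gzmf, Gzmg, Gzmn, Mcpt1, Mcpt2 and Mcpt4, did not reach the floor on either array.

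The genes on either side of this run lay closer to 0. The median log2 difference of its 5 genes above the floor was -1.06, from -1.85 to -0.53. In the 12 protein-coding genes beyond Gzmb, 7 were above the floor, with a median of -0.13 and a range of -0.27 to 0.18. In the 12 genes beyond Cma1, 7 were above the floor, with a median of 0.03 and a range of -0.27 to 0.32. Of these 14 flanking genes, 8 were lower by some amount and 6 higher, and 0 were 2-fold apart, where any lower value at all was found for 54.8% of genes above the floor. As the run was singled out for its values, its contrast with the flanks is a description. All 5 genes stayed below 0 in 7 of the 8 alternative settings of floor, scaling and probe set. Each has 1 probe set, above the main floor on both arrays. A lower floor, no floor and the probe set rules could therefore not change their differences. With the floor at the 75th percentile, Cma1 and Gzmc were at the floor. These genes are related in sequence, and how far 1 gene's probe set also takes up RNA of another, above all for dim Gzmc beside Gzmb, was not tested.

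**Figure D3:**
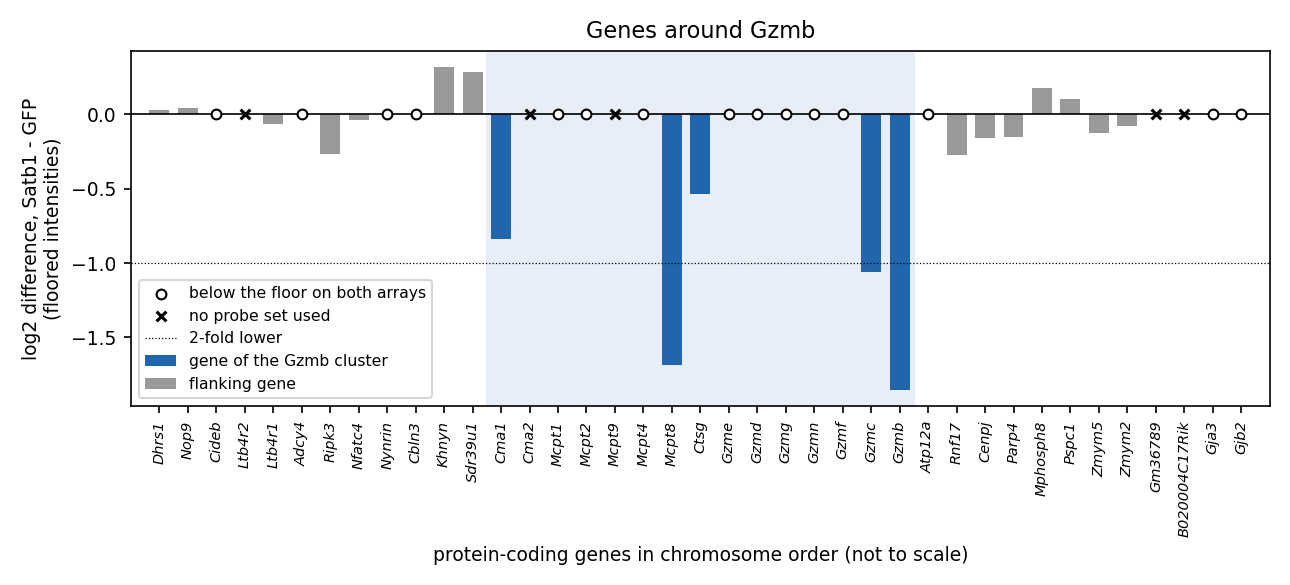
Log2 difference of floored intensities, Satb1 minus GFP (y axis), for the protein-coding genes around Gzmb in chromosome order (x axis, not to scale), with genes of the run from Cma1 to Gzmb in blue on a shaded ground. The 5 measurable genes of the run read from -1.85 to -0.53, while the 14 measurable flanking genes read from -0.27 to 0.32.

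Related granule proteases were then examined as a list that also holds members encoded elsewhere in the genome. Of 11 measured genes, 6 were above the floor, 1 (Mcpt8) was at least 2-fold lower and 0 were higher, against 1.13% of genes above the floor that were 2-fold apart in either direction. The median log2 difference of the 6 was -0.50, against -0.02 for all genes above the floor. Proteases from outside the run on chromosome 14 went different ways. Elane, the neutrophil elastase gene, read 799 and 1319.5, a log2 difference of 0.72, and its neighbour Prtn3, the proteinase 3 gene, read 12209 and 12148. Cpa3, a carboxypeptidase gene of mast cells, differed by -0.47.

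The apparatus that activates, stores and releases granzymes was expressed on both arrays with few differences. In the list of granzyme activation and granule matrix genes, all 12 were measured above the floor, 1 was at least 2-fold higher and 0 lower, against 0.272% of all genes above the floor that were higher, and the median log2 difference was 0.01. The gene past 2-fold was Ctsh, a cathepsin gene, at 244 on the GFP-labelled array and 514 on the Satb1-labelled array by 1 probe set and at 213 and 279 by the other. Ctsc, whose product cathepsin C cuts the pro-peptide from granzymes and was named after its values were seen, read 3443 and 4357. Srgn, encoding serglycin, the proteoglycan that packs granzymes in the granule, read 20917 and 20382.5, and the chaperone gene Calr read 13012 and 13463. Ctsw, encoding a cathepsin of cytotoxic lymphocytes, read 112 and, under the floor, 45.2. All 17 measured genes of granule exocytosis exceeded the floor, with a median of 0.04 and 0 that were 2-fold apart, against 1.13% of all genes above the floor. Furthest from 0 were Sytl2, a Rab27 effector gene, at 30.7 (under the floor) and 88.8, and the syntaxin gene Stx11, at 165 and 216. The vesicle fusion gene Vamp8 read 8957 and 7526, and the actin regulator gene Coro1a read 13680 and 14140. The medians of both lists thus lay near that of all genes above the floor, on the arrays where Gzmb and Nkg7 were 3.61-fold and 3.54-fold apart.

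Other serpins of clade B were all within 2-fold, as Serpinb9 and Serpinb6b were. Of 13 measured genes of the serpin list, 6 were above the floor, with 3 higher by some amount, 3 lower and 0 by 2-fold, and a median of 0.02. Serpinb1a, an inhibitor of neutrophil proteases, read 7503 and 5489 by 1 probe set, a difference of -0.45, and 1382 and 721 by the other, a difference of -0.94. Serpinb2, the plasminogen activator inhibitor 2 gene, read 398 and 737, a difference of 0.89. Serpinb6a read 925 and 958. The genes for death substrates of granzymes and for the death pathway around them were likewise within 2-fold. Of these, 16 of 16 measured genes were above the floor, 0 were 2-fold apart and the median was 0.03. Only 1.13% of all genes above the floor were 2-fold apart, so nothing particular to these lists is read from either count. The pore-forming gasdermin gene Gsdmd differed by -0.33 and Gsdme by 0.33, although the second Gsdme probe set differed by -0.10. The brightest were Cycs, the cytochrome c gene (18353 and 18883), and Set, whose product granzyme A cleaves (15455 and 16689).

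Transcription factors and cytokine receptors known to act on cytotoxic genes were all within 2-fold, and only 1.13% of all genes above the floor were not, so nothing particular to these lists is read from that count. Of 18 measured factors, 14 were above the floor, 8 higher by some amount and 6 lower, with a median of 0.06. Runx3, a driver of cytotoxic genes in T cells, read 3241.5 and 3173, and Rbpj, the Notch effector gene, read 1754 and 1942. Runx1, a factor of blood stem cells, read 959.7 and 1611 by its brightest probe set, a difference of 0.75. Its other 5 probe sets went both ways, from -1.10 to 0.38, so no direction is given for it. Id2, a helix-loop-helix inhibitor needed by NK cells, read 667 and 1089.8, a difference of 0.71, and 271 and 542 by its second probe set. Of 10 measured receptor genes, 8 exceeded the floor, their median was -0.13 and 0 were 2-fold apart. The interleukin-3 receptor alpha gene Il3ra, which responds to a growth factor of mast cells and basophils, came nearest, at 259.6 and 132, a difference of -0.98. The shared chain Csf2rb read 3869 and 4245. The interleukin-18 receptor genes Il18rap and Il18r1 read 820.9 and 725, and 71.7 and 91.4.

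**Figure D4:**
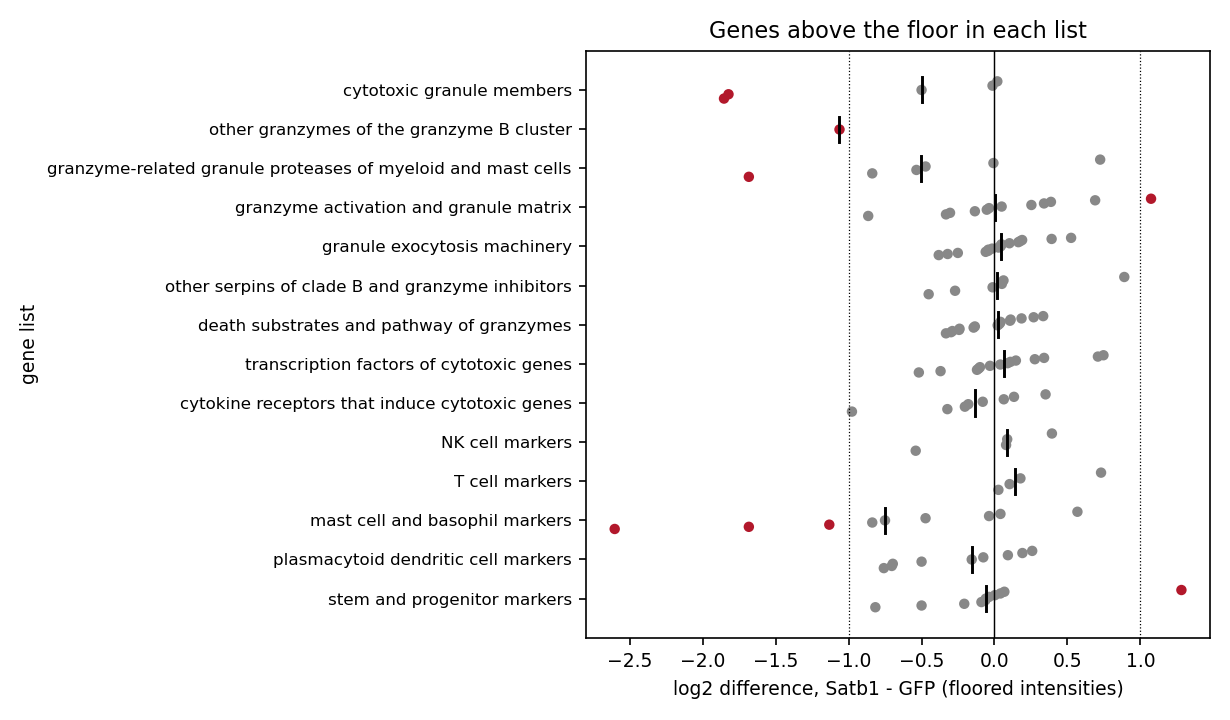
Log2 difference of floored intensities, Satb1 minus GFP (x axis), of each gene above the floor in each gene list (y axis), with genes 2-fold apart in red, the list's median as a black bar and 2-fold as dotted lines. The lists of exocytosis genes, death substrates and transcription factors have no red point, whereas the cytotoxic granule genes have 2 and the mast cell and basophil markers 3. All lists were chosen with earlier results of these data known, so the counts are a description.

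Markers of cells that could carry these transcripts were compared next. Those of NK and T cells were mostly under the floor. Of all 18193 genes, 7145 were under it on both arrays, and only 1.13% of genes above it were 2-fold apart. Of 17 measured NK cell markers, 13 were below the floor on both arrays, among them Ncr1, Eomes, Tbx21 and Il2rb, and 0 were 2-fold apart. The summed intensity of the NK markers was 2142 on the GFP-labelled array and 2438 on the Satb1-labelled array. Most of it came from 2 NK receptor genes, Cd244a (1055 and 1120.5) and Klrd1 (670.4 and 881), and the second probe set of Cd244a went the other way, at 823.9 and 614. The chemokine gene Ccl5 was lower too, at 201.2 and 138.4, a difference of -0.54. Of 14 measured T cell markers, 10 were below the floor on both arrays, with Cd3d, Cd3e and Cd3g among them, and 0 were 2-fold apart, with sums of 986 and 1079. The T cell markers above the floor included Cd28 (541.4 and 581.8), Cd5 (67.8 and 76.7) and, by 1 of its 5 probe sets, Cd8a (88.9 and 147.5). The part of NK and T cells in the values of Gzmb and Nkg7 was not tested.

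Several mast cell and basophil markers, in contrast, were lower on the same array as Gzmb and Nkg7. Of 13 measured markers, 9 were above the floor. Of these, 7 were lower by some amount and 2 higher, where 54.8% of all genes above the floor were lower. At least 2-fold lower were 3, against 0.86% of all genes above the floor. These were Fcer1a, the IgE receptor alpha chain gene (397 and 65.4), its partner chain Ms4a2 (1227 and 559.8) and Mcpt8 (4653 and 1449). The other Ms4a2 probe set read 192.4 and 104.8, a difference of -0.88 that is short of 2-fold. Mcpt8 is also counted in the chromosome 14 run and in the list of related proteases. The marker list was chosen with earlier results of these data known, so its counts are a description. The summed intensity of the list was 21723 on the GFP-labelled array and 14869 on the Satb1-labelled array, and its median difference above the floor was -0.75. Defining mast cell protease genes Tpsb2 and Mcpt4 were below the floor on both arrays, and Gata2 and Kit differed by -0.04 and 0.04. Besides Kit, the higher marker was Cd200r3, at 191.9 on the GFP-labelled array and 284.6 on the Satb1-labelled array, a difference of 0.57. In RNA of a whole population, fewer cells of a type and less RNA per cell cannot be told apart, and the part of these cells in the values of Gzmb and Nkg7 was not tested. The markers of plasmacytoid dendritic cells, another cell type that can make granzyme B, had 0 of 9 measured genes 2-fold apart. By some amount, 6 were lower and 3 higher. Of all genes above the floor, 1.13% were 2-fold apart and 54.8% lower by any amount, so nothing particular to this list is read from either count. Its sums were 9658 and 8472 and its median was -0.16. The lowest were Ccr9, a chemokine receptor gene (246.1 and 145.5, a difference of -0.76), Ly6d (283.9 and 174, -0.70) and the factor gene Spib (147.5 and 91.0, -0.70), and Bst2 differed by -0.50. The other 4 probe sets of Ccr9 were under the floor on both arrays. Siglech, a defining surface receptor, read 172 and 183, and the factor genes Tcf4 and Irf8 read 4039.5 and 3626, and 2752 and 2609.5. The part of these cells was not tested either.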

How the data were processed

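RNA labelled as cRNA was hybridised to 2 arrays, 1 labelled GFP and 1 labelled Satb1. Per the submitters' processing notes, MAS5 made the deposited linear intensities; its version, the scaling target and detection calls are not stated there. Arrays have no read depth, and their number limits the precision. The annotation gave 1 symbol to 34945 of 45037 probe sets, several to 932 and none to 9160. By Entrez ID, 34741 of the 34945 matched RefSeq of GRCm38.p6 and took its symbol. A gene with several probe sets took the one of highest mean log2 intensity. The floor (61.7), the 2-fold call and the order of neighbouring genes were applied with Python 3.11.15 and pandas 2.3.3. The script, run on arrays simulated from the GFP-labelled array, found 100% of 200 genes changed 4-fold among 18193. The changed genes all read over 500 on that array, and the noise added had an SD of 0.2 log2 units. This checks the calculation only and does not show what dimmer genes or smaller changes would give. Members and the 14 gene lists were chosen with earlier results of these data known, and the list members named are those 2-fold apart, the 2 brightest and the 2 with the largest difference, with further members, such as defining markers, added after their values were seen. The chromosome 14 run, the Nkg7 neighbours and the promoter motifs were chosen after the data were seen. Alternatives were other floors, scalings, probe set rules and fold thresholds.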

Additional observations from a re-analysis of the deposited data

How the results depend on the processing

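No paired analysis was possible because each group has 1 array, and no array could be left out. Gzmb ranged from -1.86 to -1.82 and Nkg7 from -1.82 to -1.78 on the log2 scale over all 8 alternatives of floor, scaling and probe set, and both were counted as lower at 1.5-fold, 2-fold and 3-fold. Each has 1 probe set that exceeded every floor used, so the settings of floor and probe set could not move them. Only the pseudocount, quantile normalization and centring on the median difference could, so the narrow range says little. The median of the 8 genes ranged from -0.26 to 0. With no floor the count of the 8 genes 2-fold apart was 4, through Gzmk (-2.27) and Gzmm (1.77), which lie under the floor otherwise. With no floor, 1478 of all 18193 genes were 2-fold higher and 1979 lower, so nothing is read from the counts in that setting. They were 6 of 6 other granzymes of the Gzmb run, 4 of 11 related proteases and 2 of 12 activation and matrix genes. For exocytosis genes the count was 1 of 17, for serpins 5 of 13 and for transcription factors 2 of 18. The 6 granzymes went both ways, from -3.94 for Gzmf to 2.69 for Gzmg. With the floor at the 25th percentile, 440 of all genes were 2-fold higher and 787 lower. The list counts there were 2 for related proteases, 2 for activation and matrix genes, 1 for exocytosis genes and 1 for serpins. With the floor at the 75th percentile, 5 of all genes were 2-fold higher and 18 lower. With a pseudocount of 32 these were 95 and 157. Both settings gave 0 for the other granzymes and 0 for activation and matrix genes, and the pseudocount gave 2 for related proteases. Quantile normalization gave 0 for the other granzymes, and the mean over probe sets gave 0 for activation and matrix genes. At 1.5-fold, 193 of all genes were higher and 432 lower, and at 3-fold 9 and 10. The list counts at 1.5-fold were 1 for cytokine receptors, 3 for activation and matrix genes and 3 for related proteases. They were 1 for serpins and 2 for transcription factors. At 3-fold they were 0 for activation and matrix genes and 0 for the other granzymes. Quantile normalization gave 54 genes higher and 60 lower (52.6% lower) where the main setting gave 30 and 95 (76.0% lower). The run from Cma1 to Gzmb held 3 of 13 measured genes 2-fold lower, 7 with no floor and 2 to 4 otherwise. With no floor, 10.9% of all genes were 2-fold lower.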

Other observations

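The genes around the other cytotoxic granule genes were read in the same way, after their values were seen. Around Nkg7 on chromosome 7, 7 of the 16 measured genes among 12 on each side were above the floor. Of these, 5 were lower and 2 higher, 0 of them by 2-fold, where 54.8% of all genes above the floor were lower. The median log2 difference was -0.38. The lowest were Siglecg (115 on the GFP-labelled array and 56.6, under the floor, on the Satb1-labelled array) and Cd33 (516 and 288), genes of sialic acid-binding receptors, while their relative Siglecf read 895 and 942. The electron transfer gene Etfb, the second gene beyond Nkg7, read 6480.5 and 4883. The medians were closer to 0 around Prf1 (0.04), Gzmm (-0.02), Serpinb9 (-0.05) and Gzma, whose neighbour is Gzmk (0.03). Single genes there still differed. Around Gzmm, Plppr3 read 612.3 on the GFP-labelled array and 337.5 on the Satb1-labelled array, a difference of -0.86. Around Prf1, Pcbd1 was 2-fold lower, at 167.1 and 81.3, and Unc5b read 20.4 (under the floor) and 113.6, a difference of 0.88. Around Gzma, Il31ra was 2-fold lower, at 136.2 and, under the floor, 8.3. Of all genes above the floor, 0.86% were 2-fold lower.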
